A study of Mus musculus with 31 samples.

Results

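The collagen genes were taken as the protein-coding genes of the GENCODE M21 mouse annotation whose symbol begins with Col, a number, the letter a and a number, and 45 annotated genes met this rule. Of these, 36 were among the 16929 genes of the deposited liver and epididymal white adipose tissue (eWAT) count tables, 35 of 15987 in eWAT and 29 of 13677 in liver. In both tables there were 28, while Col17a1, Col23a1, Col28a1, Col4a6, Col6a4, Col6a5 and Col9a3 were in the eWAT table alone and Col25a1 in the liver table alone. The other 9, Col2a1, Col9a1, Col9a2, Col10a1, Col11a1, Col19a1, Col22a1, Col24a1 and Col26a1, were not analysed here. One gene that meets the rule, Col4a3bp, encodes a ceramide transport protein and no collagen chain. It is counted by the rule and described apart, which leaves 35 collagen chains.

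The libraries came from male F1 mice of the C57BL/6 strain, genotype WT and aged 24 weeks, and eWAT is the visceral fat pad beside the epididymis. The HFLF arm (tag HFLFD) had 6 eWAT and 6 liver libraries, the HF arm (tag HFD) had 6 and 5, and the LF arm (tag LFD) had 4 and 4. Every animal, in all 3 arms, was fed chow after weaning and LFD from 6 weeks of age for 18 weeks, so the tag was read as the arm of the paternal line, which no label spells out. No label says whether animals of an arm share a sire or litter, so that p-values measure the spread between these animals. The tissue pieces were sequenced whole, and fewer cells of a type cannot be told apart from less RNA per cell.

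Collagens are the main proteins of the extracellular matrix, built from chains that wind into a triple helix. Fibrillar chains form the tensile fibres that accumulate in fibrosis, type IV chains form the sheet of the basement membrane that surrounds each adipocyte and vessel, and type VI chains form beaded filaments close to fat cells. In liver, hepatic stellate cells are the best known source of fibrillar collagen, while type XVIII collagen, the precursor of endostatin, is made by hepatocytes.

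Library totals ran from 9278083 to 27230205 counts in eWAT and from 9225373 to 17268415 in liver, and a count of 3 corresponded to 0.110 to 0.323 CPM in eWAT and 0.174 to 0.325 CPM in liver, where CPM is the count per 1000000 counts of the library and such floors cover counting error only. All 10 adipocyte markers were measured in eWAT, with a summed level of 38056 to 52333 CPM, and all 12 hepatocyte markers in liver, with 130562 to 151999 CPM. The eWAT library LF 3 stood apart from the other 15, with a fibrillar collagen sum of 7916 CPM against 2326 to 4569 CPM in the others. LF 3 was 1 of 3 eWAT libraries with over 100 CPM of Alb, the main plasma protein made by hepatocytes (217 CPM in HF 5, 138 in LF 3 and 170 in LF 5), and 1 of 4 eWAT libraries (HF 2, HF 6, LF 3 and LF 6) with testis transcripts. Its 10 fibroblast markers summed to 1019 CPM, within the 989 to 1601 CPM of the others. Values without LF 3 stand beside several of the eWAT comparisons with LF. Without the 4 libraries with testis transcripts the LF arm of eWAT keeps LF 2 and LF 5 only, so those estimates rest on few animals.

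Collagen transcripts took a larger share of eWAT RNA than of liver RNA. The 34 chains in the eWAT table held 0.962% of the counts on average, from 0.622% in HFLF 3 to 1.25% in LF 3, and the 28 chains in the liver table held 0.210%, from 0.179% in HFLF 5 to 0.234% in HF 1. The makeup differed as well. In eWAT the 8 fibrillar chains made up 38.7% of the collagen level in CPM, the 6 type IV chains 31.7%, the 6 type VI chains 16.2% and the multiplexins Col15a1 and Col18a1 11.5%. In liver the 2 multiplexins made up 77.7%, the 8 fibrillar chains 14.1%, the 5 type IV chains 3.37% and the 4 type VI chains 1.8%.

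**Figure D1:**
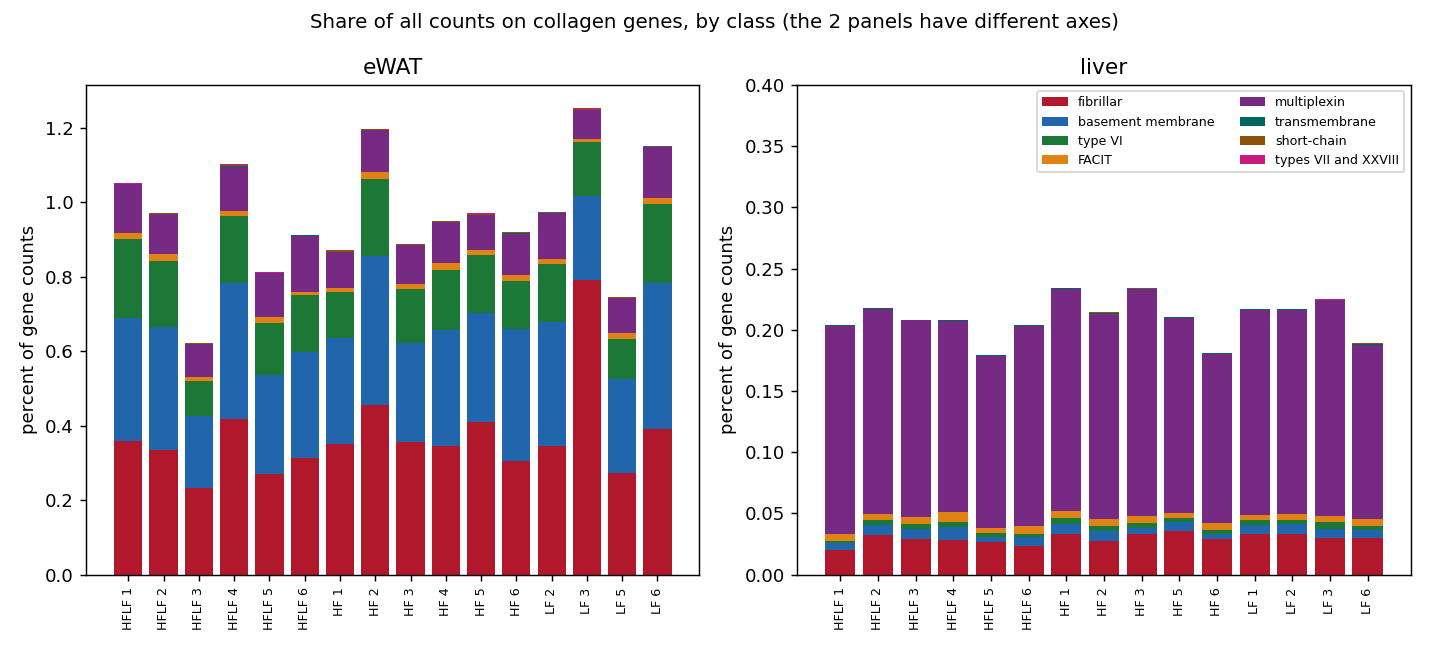
Percent of all gene counts that fell on collagen genes (y axis) in each eWAT and liver library (x axis, arm and replicate number), stacked by collagen class, with separate y axes. In eWAT LF 3 is the tallest bar at 1.25% and HFLF 3 the lowest at 0.622%, and in liver the multiplexin part fills most of every bar.

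Per kilobase of exon, which allows genes to be compared, the highest collagen in eWAT was Col4a1 at 229 ± 39.9 CPM per kb (SD, n = 16), the α1 chain of the network of basement membranes. Its partner chain Col4a2 followed at 196 ± 43.7 CPM per kb, with 785, 1285 and 1792 CPM as its lowest, median and highest library. The type VI chain Col6a1 had 151 ± 38.1 CPM per kb, and its libraries ran from 398 to 977 CPM. Next came the multiplexin Col15a1, a component of the outer basement membrane zone, at 115 ± 25.1 CPM per kb, the fibrillar chain Col3a1 at 114 ± 44.4 and the type V chain Col5a3 at 108 ± 24.9. The last 3 lay closer together than 1 SD of any of them. Between the highest and the lowest eWAT member, Col6a4 at 0.0733 ± 0.0526 CPM per kb, the levels covered more than 3 orders of magnitude.

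In liver, Col18a1 stood above every other collagen at 230 ± 19.8 CPM per kb (n = 15). The next, Col5a3, had 14.6 ± 3.20 CPM per kb, and the fibrillar chain Col27a1, best known from cartilage, had 7.86 ± 2.17. Col14a1, which sits on the surface of collagen fibrils, had 6.21 ± 1.13 CPM per kb, with libraries from 31.6 to 61.7 CPM, Col4a3bp 5.23 ± 0.746 and Col4a1 5.09 ± 1.23. Col1a1, Col1a2 and Col3a1, the chains of the type I and III fibres, had 2.68 ± 1.03, 1.90 ± 0.399 and 3.77 ± 1.15 CPM per kb in liver. With the length of the longest transcript in place of the whole exon length, 5 of the 6 highest members remained among the 6 highest in each tissue. Col1a2 then replaced Col5a3 in eWAT, and Col3a1 replaced Col4a1 in liver. The exon lengths of Col1a2 and Col3a1 are 12426 and 9816 bases, and their longest transcripts 5348 and 5564 bases. Their levels per kb and ranks therefore depend on the length used.

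**Figure D2:**
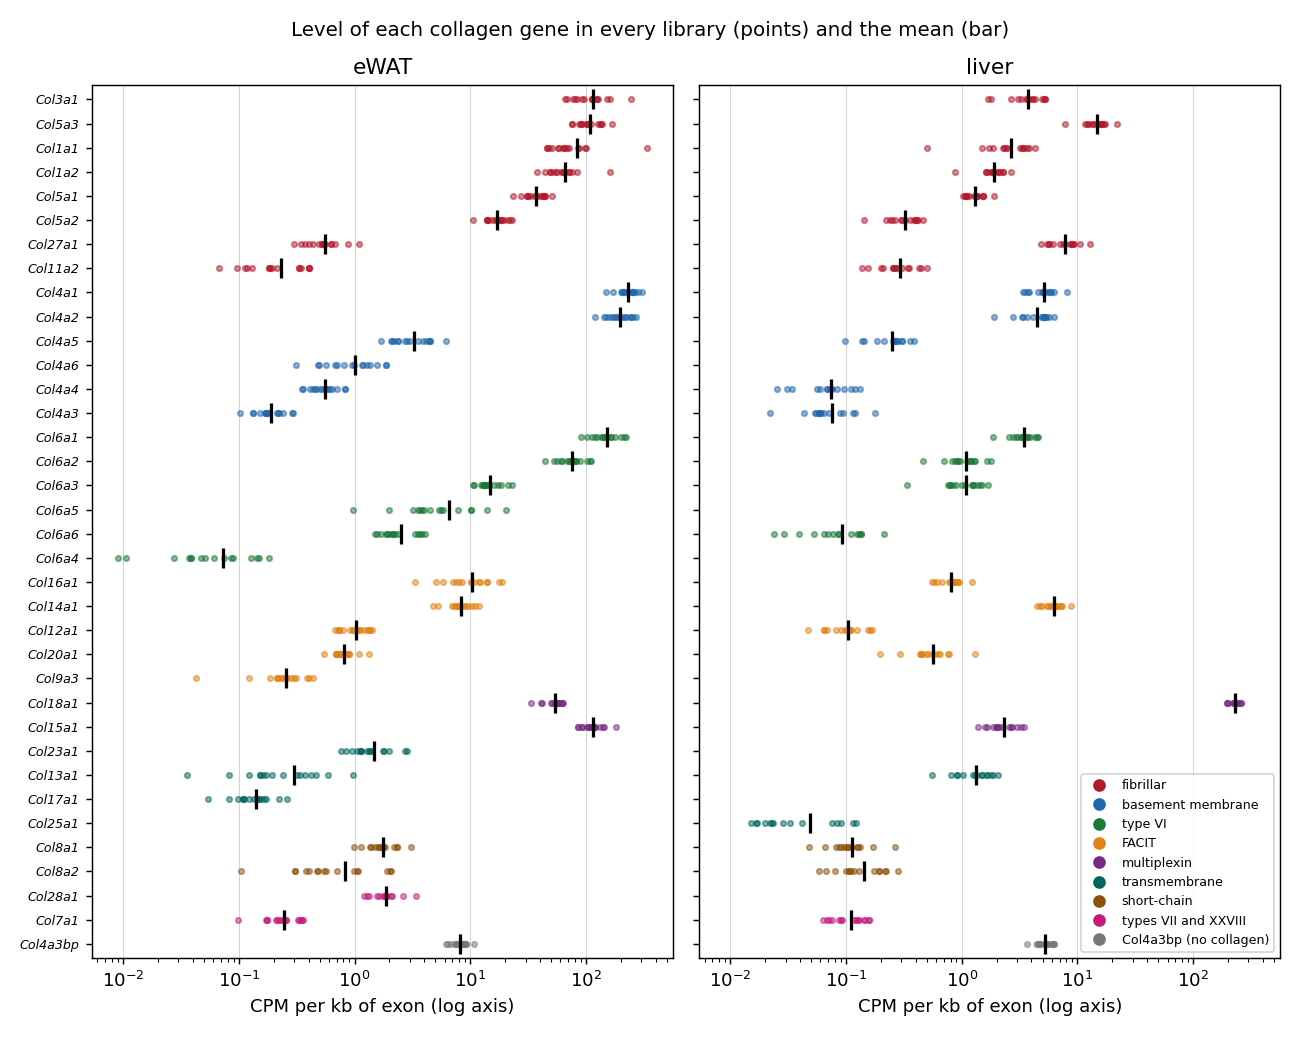
Level in CPM per kb of exon (log x axis) of each of the 36 members (rows, coloured by class) in every eWAT library (left) and liver library (right), with the mean as a black bar. Col18a1 lies at 230 CPM per kb in liver and 53.5 in eWAT, and Col4a1 at 229 CPM per kb in eWAT and 5.09 in liver.

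The low end of the set was close to the counting limit. In liver Col25a1, a transmembrane collagen known from brain, averaged 0.629 CPM and had 3 counts or fewer in 5 of 15 libraries, Col6a6 had so few in 2, and Col4a3, Col4a4 and Col8a2 in 1 each. In eWAT Col6a4 had 3 counts or fewer in 2 libraries and Col13a1, Col9a3 and Col17a1 in 1 each. No member was at 0 in any library. The type VI chain Col6a5, named after its values were seen, had the widest relative range among eWAT members above 10 CPM on average, from 9.08 CPM in HFLF 6 to 191 CPM in HFLF 4. HFLF 4 had the second highest sum of the 8 smooth muscle markers, 1229 CPM, after HF 1 with 1534 CPM, and Col6a5 had 96 CPM in HF 1 and 132 CPM in HF 5, whose markers summed to 599.9 CPM.

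Some chains assemble into the same molecule, and their ratios were compared within each library. The level of Col4a1 per kb over that of Col4a2 was 1.04 to 1.33 in eWAT, with a median of 1.19, and 0.926 to 1.85 in liver, with a median of 1.13. For Col6a1 over Col6a2 the ratio was 1.78 to 2.08 in eWAT and 2.55 to 4.02 in liver, ranges that did not overlap. Col1a1 over Col1a2, the α1 and α2 chains of type I collagen, was 1.03 to 1.23 in HFLF, 0.909 to 1.32 in HF and 0.922 to 2.06 in LF in eWAT, where LF 3 held the highest value. These ratios depend on the length used. With the longest transcript of each gene Col1a1 over Col1a2 was 0.433 to 0.982 in eWAT, below 1 in every library, and Col6a1 over Col6a2 was 1.12 to 1.31 in eWAT and 1.61 to 2.53 in liver, again without overlap.

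Col4a1 and Col4a2 are neighbours transcribed away from each other, and their 2 windows are printed because they lie head to head. RefSeq promoter windows of 250 bases before to 50 bases after a gene's start (GRCm38.p6) matched 29 of the 36 members, with 31 windows. The starts of Col4a1 and Col4a2 lie so close that the first 22 bases of both transcripts overlap on opposite strands. No source used here says whether counting used the strand. Without it, reads on these bases cannot be told apart, and they are 0.295% of the exon bases of Col4a1 and 0.332% of those of Col4a2. Capitals mark the CCAAT box, spelled as named, the TATA box letters TATAAA and the GC box letters GGGCGG, each also as its reverse complement. No motif contains another, and a match describes the letters only. The windows are on chr8:11312777-11313076, minus strand, for Col4a1 and chr8:11312555-11312854, plus strand, for Col4a2.
Col4a1: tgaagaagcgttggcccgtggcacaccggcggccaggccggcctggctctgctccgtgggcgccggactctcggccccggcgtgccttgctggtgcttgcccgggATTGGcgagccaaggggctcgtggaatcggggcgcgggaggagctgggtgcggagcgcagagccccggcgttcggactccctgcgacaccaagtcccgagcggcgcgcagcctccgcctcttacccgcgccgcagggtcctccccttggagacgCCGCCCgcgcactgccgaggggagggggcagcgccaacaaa
Col4a2: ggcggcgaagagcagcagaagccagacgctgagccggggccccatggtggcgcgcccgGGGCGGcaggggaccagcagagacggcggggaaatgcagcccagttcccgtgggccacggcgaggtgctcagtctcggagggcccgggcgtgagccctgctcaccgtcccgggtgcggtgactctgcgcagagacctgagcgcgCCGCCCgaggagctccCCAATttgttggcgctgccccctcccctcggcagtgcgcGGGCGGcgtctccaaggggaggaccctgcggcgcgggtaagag

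GGGCGG, in either direction, was in 21 of the 31 collagen windows (67.7%) and in 11714 of all 32851 RefSeq windows (35.7%). The Col4a1 and Col4a2 windows share 78 bases and the 2 Col6a2 windows overlap, so the 31 are not independent. Shares of G and C over all RefSeq windows were not measured. CCAAT was in 11 of 31 (35.5%) against 37.4% of all windows, and TATAAA in 4 of 31 (12.9%) against 13.6%. Col18a1, the leading liver collagen, has 2 windows 52825 bases apart, which are shown because counts per gene do not tell the starts apart. The outer one lies at chr10:77166481-77166780, minus strand, and the inner one at chr10:77113656-77113955, minus strand.
Col18a1 outer start: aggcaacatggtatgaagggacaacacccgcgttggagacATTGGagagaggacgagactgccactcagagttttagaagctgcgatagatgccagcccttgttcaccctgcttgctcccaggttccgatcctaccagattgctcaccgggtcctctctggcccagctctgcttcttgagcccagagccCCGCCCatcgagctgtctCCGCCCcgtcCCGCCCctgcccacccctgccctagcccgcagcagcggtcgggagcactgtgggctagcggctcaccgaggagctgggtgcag
Col18a1 inner start: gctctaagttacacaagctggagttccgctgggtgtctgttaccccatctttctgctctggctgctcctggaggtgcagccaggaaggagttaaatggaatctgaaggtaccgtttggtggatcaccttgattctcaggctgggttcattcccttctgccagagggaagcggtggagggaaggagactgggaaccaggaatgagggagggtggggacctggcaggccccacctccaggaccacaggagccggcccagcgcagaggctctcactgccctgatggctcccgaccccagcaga
The outer window held 1 CCAAT and 3 GGGCGG matches, and the inner window none of the 3 motifs. Both windows are rich in G and C, with 63.3% and 59.7%.

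Most collagens were higher in eWAT than in liver, while 5, among them Col18a1, Col27a1 and Col13a1, were lower. EdgeR's quasi-likelihood test, run once on the 31 libraries with the 12735 genes that the tables share, put 21 of the 28 members higher in eWAT and 5 lower at adjusted p under 0.05. Over all genes 85.5% were called, 42.9% higher and 42.6% lower. The median log2 fold change, eWAT over liver, was 2.94 over the members and -0.0049 over all genes. Scaled by library totals alone the median of all genes was 0.73, and 24 members were then called higher and 3 lower, against 9143 and 2477 of all genes. CPM levels, which use library totals, include this shift, and the log2 fold changes do not.

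By class, all 5 type IV chains and all 4 type VI chains measured in both tissues were higher in eWAT. The type VI chain Col6a2 had 370, 626 and 917 CPM (lowest, median and highest) in eWAT and 3.88, 9.22 and 14.9 CPM in liver. Its log2 fold change was 5.38 ± 0.18 (SE), with an edgeR adjusted p of 3.66e-22. Col4a1 had 1118, 1714 and 2258 CPM in eWAT and 25.2, 37.5 and 60.3 CPM in liver, a log2 fold change of 4.75 ± 0.14 (edgeR adjusted p = 2.96e-24). For both genes every eWAT library lay above every liver library. How many of all genes lay so apart between tissues was not counted, here and below, while 85.5% of them were called. The rarer type IV chains Col4a3, Col4a4 and Col4a5 were higher by log2 fold changes of 0.56, 2.09 and 2.97.

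Of the 8 fibrillar chains 6 were higher in eWAT and 2 lower. Col5a2, a chain that helps start type I fibrils, had 100.5, 166 and 222 CPM in eWAT and 1.38, 3.12 and 4.48 CPM in liver, with a log2 fold change of 4.97 ± 0.13 (edgeR adjusted p = 4.45e-25). Col1a1, Col1a2 and Col3a1 were higher by 4.22 ± 0.27, 4.39 ± 0.16 and 4.18 ± 0.19, and without the 4 libraries with testis transcripts by 3.78, 4.17 and 3.97. The exceptions were Col27a1 and Col11a2. Col27a1 had 3.88, 6.86 and 14.1 CPM in eWAT and 62.9, 101 and 165 CPM in liver, with a log2 fold change of -4.52 ± 0.16 (edgeR adjusted p = 1.2e-21) and no overlap between the tissues. Col11a2, a minor chain of cartilage fibrils, had a log2 fold change of -1.08 ± 0.22 at 1.59 CPM on average in eWAT and 2.0 CPM in liver, and with library totals alone this was -0.35 and not called.

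The multiplexins went in opposite directions. Col15a1 had 544, 700.2 and 1151 CPM in eWAT and 8.73, 13.2 and 22.0 CPM in liver, a log2 fold change of 4.89 ± 0.15 (edgeR adjusted p = 8.97e-24). Col18a1 had 237, 389 and 446 CPM in eWAT and 1373, 1651 and 1834 CPM in liver, a log2 fold change of -2.87 ± 0.09 (edgeR adjusted p = 1.1e-23). Neither gene's tissues overlapped.

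Among the remaining classes, the fibril-associated chains Col12a1 and Col16a1 were higher in eWAT, by 2.57 and 2.92, Col20a1 was not called (log2 fold change -0.15 ± 0.16), and Col14a1 was lower by a log2 fold change of -0.34 ± 0.10. That direction of Col14a1 turned with library totals alone, to 0.40. The short-chain network collagens Col8a1 and Col8a2, made by vessel and corneal cells, were higher by 3.20 and 1.71, and the anchoring fibril collagen Col7a1 by 0.42. The transmembrane chain Col13a1 had 0.163, 1.00 and 4.44 CPM in eWAT and 2.53, 6.20 and 9.42 CPM in liver, a log2 fold change of -2.88 ± 0.29 (edgeR adjusted p = 1.4e-10). Col4a3bp, with 67.0 CPM on average in eWAT and 43.1 CPM in liver, was not called, at -0.12 ± 0.07 and with library totals alone at 0.62.

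**Figure D3:**
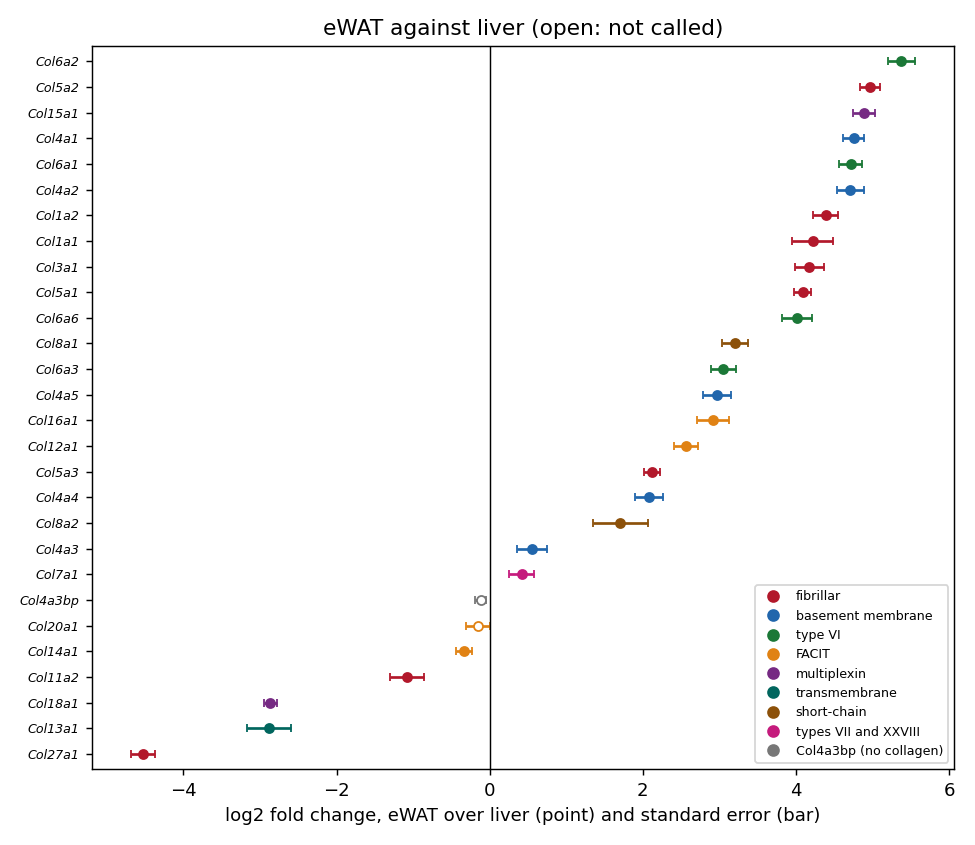
Log2 fold change, eWAT over liver, with its standard error (x axis), of the 28 members measured in both tissues (rows, coloured by class), with open points for the 2 that were not called. Type IV and type VI chains lie to the right, up to 5.38 for Col6a2, and Col18a1, Col13a1 and Col27a1 lie to the left, down to -4.52.

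The arm comparisons called no collagen. In eWAT edgeR's quasi-likelihood test called 0 of 35 members and 0 of 15987 genes (0%) at adjusted p under 0.05 in each of the HFLF-LF, HF-LF and HFLF-HF comparisons. At an unadjusted p under 0.05 the HFLF-LF comparison had 4 members of 35 against 10.8% of all genes, HF-LF had 1 against 7.04%, and HFLF-HF had 2 against 9.3%. DESeq2 called 69, 12 and 52 genes in these comparisons and limma voom 0 in each, among them 0 members. In no comparison did a member's eWAT arms lie wholly apart, against 1.22%, 1.03% and 0.669% of all genes.

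Between HFLF and LF in eWAT, the members with the smallest p were Col1a1 and Col1a2, the chains of type I collagen, with lower means in HFLF. Col1a1 had 303, 359 and 556 CPM (lowest, median and highest of 6) in HFLF, and 412, 2202, 316 and 571 CPM in the LF libraries 2, 3, 5 and 6. Of the 6 HFLF libraries 4 lay between LF 5 and LF 6, HFLF 3 and HFLF 6 lay just below LF 5, and LF 3 lay far above all. The log2 fold change was -1.13 ± 0.41, with an unadjusted p of 0.0141 and an adjusted p of 0.329 in edgeR. Without LF 3 it was -0.13 ± 0.22, and without the 4 libraries with testis transcripts 0.15.

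Col1a2 had 465, 610 and 887 CPM in HFLF, and 683, 2022, 648 and 816 CPM in the same LF libraries. Its log2 fold change was -0.67 ± 0.26 (edgeR, unadjusted p = 0.0187, adjusted p = 0.354) and without LF 3 it was -0.15. Col3a1 had 648, 878 and 1249 CPM in HFLF, and 911, 2400 (LF 3), 786 and 1116 CPM in LF, with a log2 fold change of -0.49 ± 0.28 and -0.03 without LF 3. For all 3 genes the arms overlapped and LF 3 was the highest of the 16 libraries. LF 3 was also the highest for Col27a1, Col6a3 and Col11a2 and the lowest for Col14a1, Col15a1, Col17a1 and Col18a1, which makes 10 of 35 members.

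Col27a1 had 3.88, 6.21 and 8.15 CPM in HFLF, and 11.4, 14.1, 7.02 and 5.25 CPM in LF. Here LF 2 and LF 3 were above every HFLF library and the other LF libraries were not. Its log2 fold change was -0.59 ± 0.25 (edgeR, unadjusted p = 0.0291, adjusted p = 0.398) and -0.35 without LF 3. In all, 7 of 8 fibrillar chains had a lower estimate in HFLF, with a median log2 fold change of -0.48, and without LF 3 there were 6 of 8, with a median of -0.08 and 0 at an unadjusted p under 0.05. Without the 4 libraries with testis transcripts, LF kept LF 2 and LF 5 only. In that setting 5 of 8 fibrillar chains had a higher estimate in HFLF, with a median of 0.12. Col4a3bp, the ceramide transporter, had 56.2, 71.1 and 75.0 CPM in HFLF, and 65.8, 52.7, 64.5 and 51 CPM in LF, a log2 fold change of 0.27 ± 0.12 (edgeR, unadjusted p = 0.0355, adjusted p = 0.418), and 0.12 without those 4 libraries.

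Medians of the other large classes between HFLF and LF moved with the libraries included. The 6 type IV chains had a median log2 fold change of 0.01, with Col4a1 at 1118, 1719 and 1960 CPM in HFLF and 1265, 1679 and 2091 CPM (lowest, median and highest of 4) in LF. Without LF 3 the type IV median was 0.24. Without the 4 libraries with testis transcripts, where LF 2 and LF 5 alone remain in LF, it was 0.20, with all 6 estimates higher in HFLF. The 6 type VI chains had a median of 0.03, which was -0.24 without the 2 libraries high in smooth muscle markers and 0.30 without the 4 with testis transcripts. The 5 fibril-associated chains had a median of 0.05. Over all 34 chains the median was 0.00, with 17 estimates higher and 17 lower, beside 0.01 over all genes.

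Marker lists are given beside these values, and their part in the LF 3 values was not tested. The 5 testis markers, all of them at 0 in at least 1 eWAT library, summed to 0.197 to 1.19 CPM in HFLF, 0.0894 to 116 CPM in HF and 0.0707 to 23.6 CPM in LF. The 12 hepatocyte markers summed to 5053 to 8822, 4651 to 8716 and 5606 to 10481 CPM in the same order, and the 10 fibroblast markers to 989 to 1601, 1137 to 1595 and 1019 to 1348 CPM. The 9 macrophage markers summed to 759 to 1504 CPM in HFLF, 1104 to 2354 CPM in HF and 1157 to 2602 CPM in LF, where LF 3 was the highest of the 16 libraries. LF 3 was also the highest for the summed hepatocyte markers. Among these, Alb ran from 11.6 to 217 CPM and Apoa1 from 0.842 to 67.1 CPM, a small part of the sums. Both were higher in HF 5 (217 and 67.1 CPM) and LF 5 (170 and 45.4 CPM) than in LF 3 (138 and 41.8 CPM). For the 2 measured of 6 cartilage and bone markers LF 3 was again the highest, at 13.1 CPM. Their sum was 3.39 to 8.41 CPM in HFLF and 4.47 to 8.50 CPM in HF. HF 2 and HF 6, with 76.8 and 116 CPM of testis markers against 23.6 CPM in LF 3, had Col1a1 at 651 and 378 CPM.

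**Figure D4:**
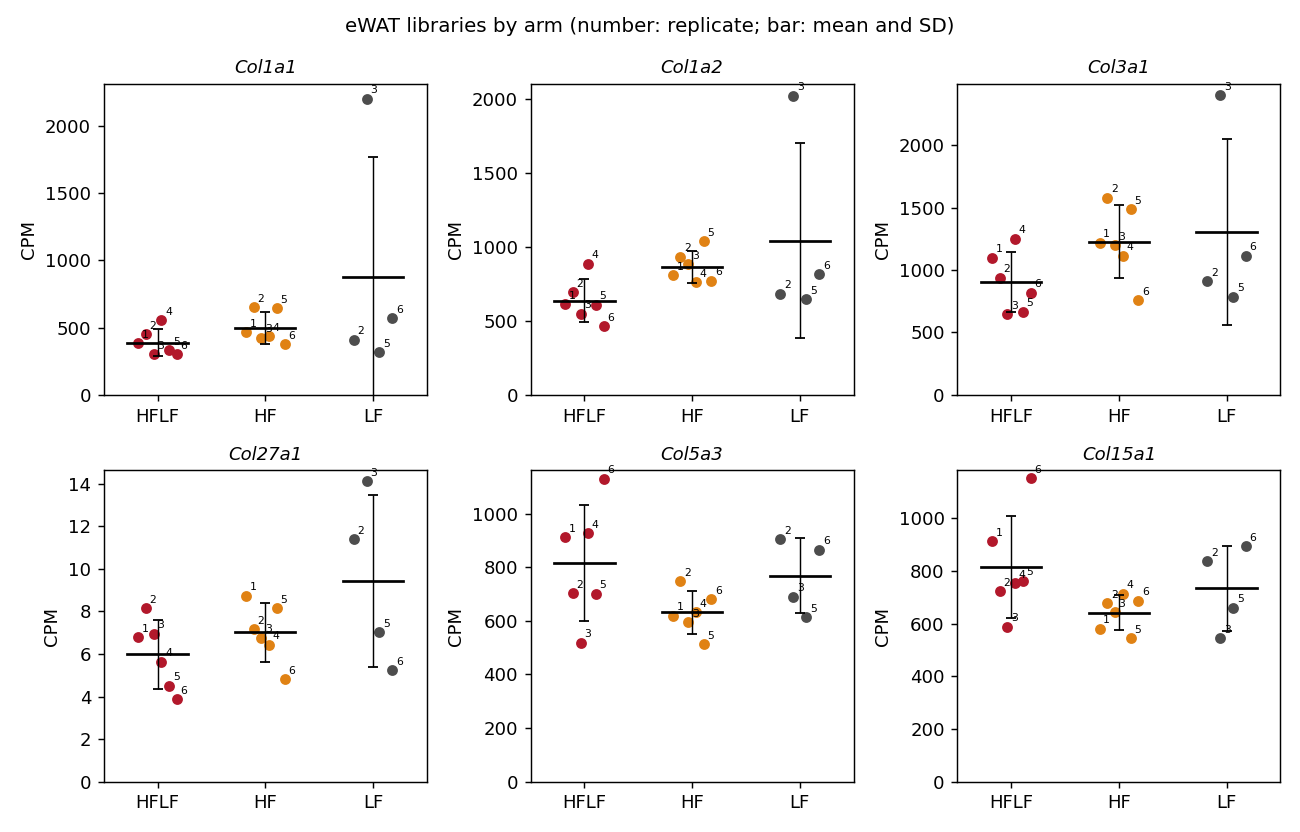
CPM (y axis, from 0) of Col1a1, Col1a2, Col3a1, Col27a1, Col5a3 and Col15a1 in each eWAT library by arm (x axis), with replicate numbers, the mean and its SD (bars cut at 0). LF 3 is the single high point of the type I and III chains, at 2202 CPM for Col1a1, and some HFLF libraries lie above all HF libraries for Col5a3 and Col15a1, up to 1131 and 1151 CPM.

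Between HF and LF in eWAT, all 8 fibrillar chains had a lower estimate in HF and all 6 type IV chains a higher one, none called. Without LF 3, 3 of 8 fibrillar chains had a lower estimate and 4 of 6 type IV chains a higher one. Col1a1 had 378, 449 and 651 CPM in HF, against 412, 2202, 316 and 571 CPM in LF 2, 3, 5 and 6. Its log2 fold change was -0.84 ± 0.41 (edgeR, unadjusted p = 0.0575, adjusted p = 0.689), and without LF 3 it turned to 0.17. Col27a1, Col5a3 and Col14a1 had log2 fold changes of -0.44 ± 0.25, -0.31 ± 0.18 and 0.31 ± 0.20, with edgeR adjusted p of 0.689, 0.689 and 0.705. Without LF 3 Col27a1 was at -0.19 and Col14a1 at 0.16, and without LF 5 Col14a1 was at 0.59. Without the 3 libraries high in B cell markers Col5a3 was at -0.15 and Col14a1 at 0.13.

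Col4a3bp, which meets the naming rule only, was the 1 member with an unadjusted p under 0.05 between HF and LF. It had 60.9, 71.2 and 88.3 CPM in HF, and 65.8, 52.7, 64.5 and 51 CPM in LF. LF 2 and LF 5 lay within the HF range, and the log2 fold change was 0.26 ± 0.12 (edgeR, unadjusted p = 0.0384, adjusted p = 0.689). Without the 4 libraries with testis transcripts it was 0.0076. The median over the 34 chains was 0.04.

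Between HFLF and HF in eWAT, where LF 3 takes no direct part, Col5a3 and Col15a1 had the smallest p. Col5a3, a type V chain that is incorporated into type I fibrils, had 519, 808 and 1131 CPM in HFLF and 514, 626 and 747 CPM in HF. Its log2 fold change was 0.44 ± 0.16 (edgeR, unadjusted p = 0.0148, adjusted p = 0.457), with HFLF 1, HFLF 4 and HFLF 6 above every HF library. Col15a1 had 588, 758 and 1151 CPM in HFLF and 545, 661 and 713 CPM in HF, with a log2 fold change of 0.42 ± 0.16 (edgeR, unadjusted p = 0.016, adjusted p = 0.463). Of the 6 HFLF libraries 5 were above every HF library, and HFLF 3 was not. Without HFLF 6, the highest library of both genes, the estimates were 0.31 for Col5a3 and 0.29 for Col15a1.

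Col1a2, Col4a6 and Col20a1 were lower in HFLF by estimate, with log2 fold changes of -0.38 ± 0.23, -0.57 ± 0.36 and -0.25 ± 0.17 and edgeR adjusted p of 0.631, 0.643 and 0.663. Col20a1 was at -0.11 without HF 1, its highest HF library, and Col4a6 at -0.21 without the 3 libraries high in B cell markers. Col1a2 had 465, 610 and 887 CPM in HFLF and 763, 846 and 1038 CPM in HF, so that HFLF 4 alone lay within the HF range. Of the 34 chains 26 had a lower estimate in HFLF, with a median of -0.09, beside 0.00 over all genes. HFLF 6 was the lowest of the 16 libraries for 12 of 35 members and HFLF 3 for 8. These libraries were also the 2 lowest in macrophage markers, at 759 and 821 CPM, and the 10 mesothelium markers summed to 6.98 CPM in HFLF 6, where HF 6 was next lowest at 49.5 CPM. The part of these markers in the result was not tested.

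**Figure D5:**
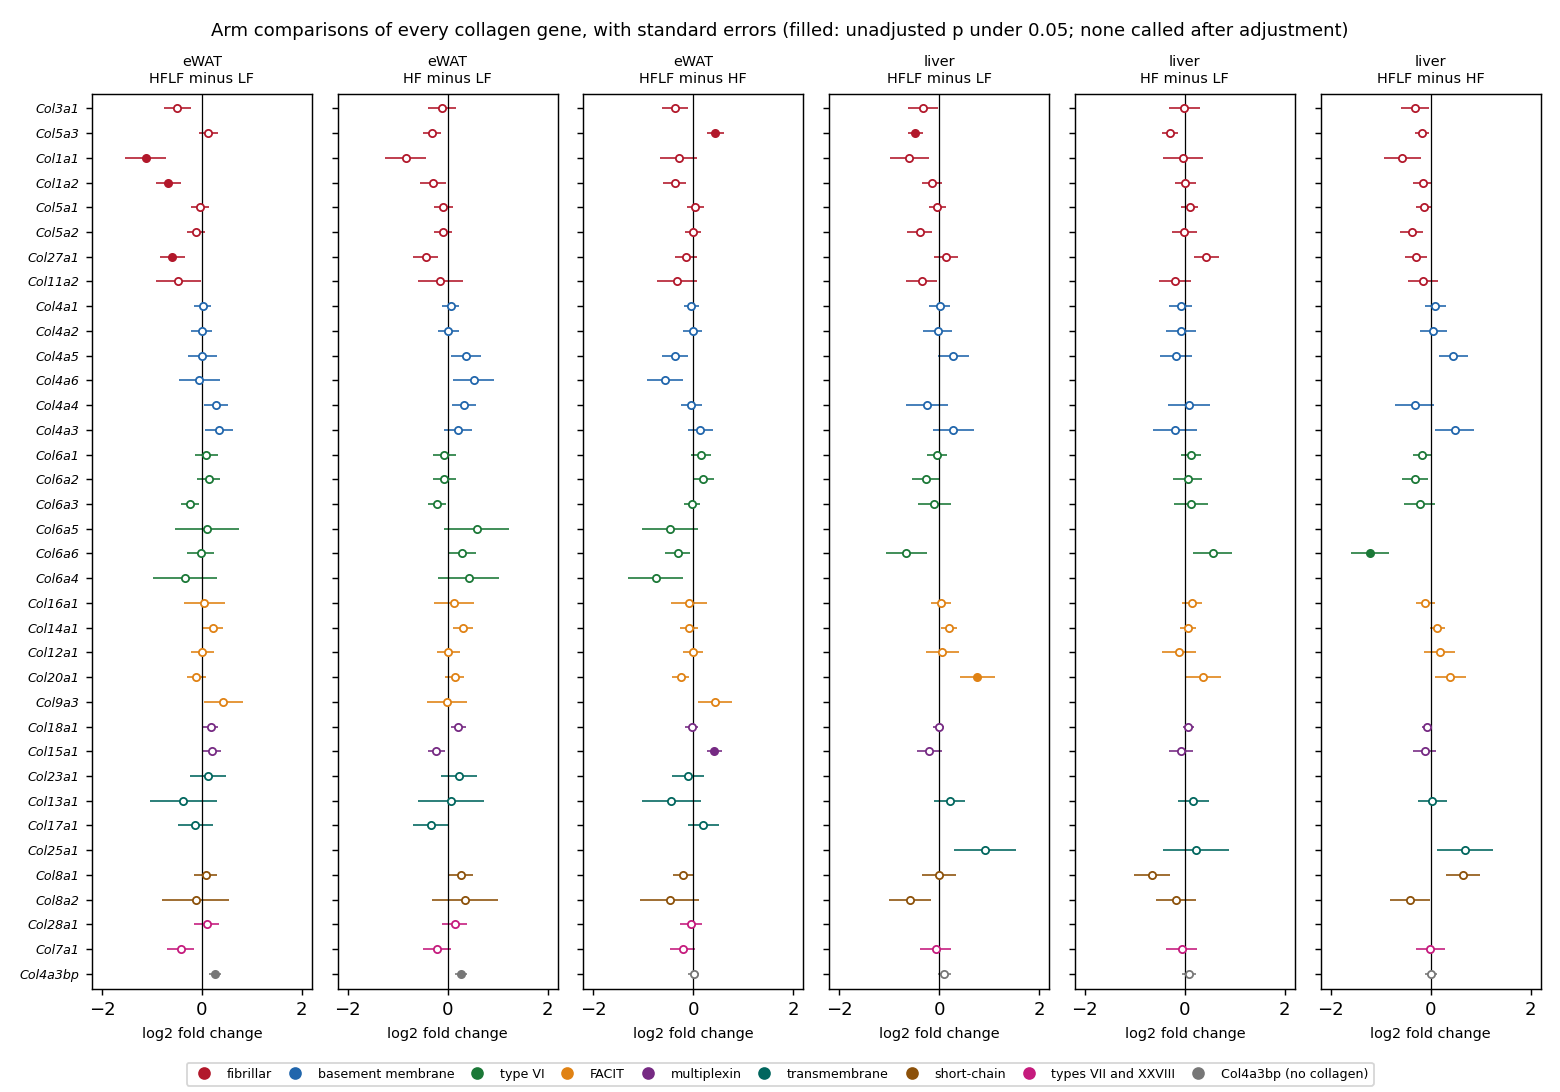
Log2 fold change with standard error (x axis) of every member (rows, coloured by class) in the 3 arm comparisons of eWAT (left 3 panels) and liver (right 3 panels), filled where the unadjusted p is under 0.05. The largest estimate below 0 in eWAT is Col1a1 at -1.13 between HFLF and LF, and in liver Col6a6 at -1.21 between HFLF and HF. Levels of Col6a6 in liver are near the counting limit.

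The 3′ untranslated regions of the members were searched for letters that pair with let-7, the microRNA family in the title of the series, and with miR-29, a family known for repressing collagens. Levels of either microRNA were not analysed here. The mature RefSeq sequences are printed 5′ to 3′ with the seed, bases 2 to 8, in capitals.
let-7a-5p: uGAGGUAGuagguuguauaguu
miR-29a-3p: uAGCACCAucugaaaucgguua
The let-7a-5p seed is shared by 10 mature mouse sequences of the let-7 and miR-98 group and the miR-29a-3p seed by 3 of the miR-29 group. The longest annotated 3′ untranslated region of 36 members was searched for CTACCTC, the match of the let-7 seed, and TGGTGCT, the match of the miR-29 seed, on the sense strand.

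CTACCTC was present in 7 of 36 members (19.4%), Col1a1, Col1a2, Col3a1, Col5a2, Col14a1, Col23a1 and Col27a1, against 1495 of 14435 protein-coding genes of the tables (10.4%). TGGTGCT was present in 19 of 36 (52.8%), against 15.1% of all genes, with 4 copies each in Col4a3 and Col5a1 and 3 each in Col4a5 and Col5a3. The median length of these regions was 1080 bases over the members and 1139 over all genes. The stretches around the matches, in capitals, are shown for the type I and III chains. These chains had the largest HFLF-LF estimates among the abundant eWAT collagens. Without LF 3 those estimates were -0.13 for Col1a1, -0.15 for Col1a2 and -0.03 for Col3a1. The stretches lie at chr11:94952389-94952414 and chr11:94952522-94952547 for Col1a1, chr6:4541061-4541086 for Col1a2, and chr1:45349134-45349159 and chr1:45348966-45348991 for Col3a1, all on the plus strand of GRCm38.
Col1a1 let-7 match: ttgtgttgctgaaagaCTACCTCgtt
Col1a2 let-7 match: cttccaaaggtttgaaCTACCTCaag
Col3a1 let-7 match: ctcctccctatgttaaCTACCTCaac
Col1a1 miR-29 match: ggtgggaaggaatttcTGGTGCTata
Col3a1 miR-29 match: cttcaaaatgtctcaaTGGTGCTata
The 7 members with the let-7 match had log2 fold changes between HFLF and LF in eWAT of -1.13 (Col1a1) to 0.22 (Col14a1), and none was called. Col18a1, the highest liver member, held neither match in its region of 1016 bases.

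In liver, too, no collagen was called between arms. EdgeR called 0 of 29 members and 0 of 13677 genes (0%) in the HFLF-LF, HF-LF and HFLF-HF comparisons. At an unadjusted p under 0.05 there were 2 members in HFLF-LF against 5.47% of all genes, 0 in HF-LF against 3.6%, and 1 in HFLF-HF against 1.86%. DESeq2 called 11, 1 and 0 genes and limma voom 0 in each, with 0 members among them.

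Between HFLF and LF in liver, Col5a3 had the smallest p. It had 52.8, 85.8 and 111 CPM in HFLF, and 115, 148, 118 and 109.5 CPM in the LF libraries 1, 2, 3 and 6. Of the 6 HFLF libraries 5 lay below every LF library, with HFLF 4 just inside the LF range, and HFLF 6 was the lowest. The log2 fold change was -0.48 ± 0.15 (edgeR, unadjusted p = 0.00656, adjusted p = 0.807), and it stayed between -0.55 and -0.37 when any 1 library was left out.

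Col20a1, a fibril-associated collagen of low level, had 2.29, 3.10 and 6.69 CPM in HFLF, and 2.23, 2.60, 2.35 and 1.49 CPM in LF, with a log2 fold change of 0.77 ± 0.34 (edgeR, unadjusted p = 0.0399, adjusted p = 0.868). HFLF 6 was its highest library, and 4 of 6 HFLF libraries exceeded every LF library. Without HFLF 6 the estimate was 0.50. The fibrillar chains Col5a2 and Col1a1 and the type VI chain Col6a6 had log2 fold changes of -0.39 ± 0.25, -0.60 ± 0.39 and -0.65 ± 0.42, all with an edgeR adjusted p of at least 0.868. Col1a1 had 3.31, 15.5 and 21.1 CPM in HFLF, and 24.1, 21.7, 25.2 and 12.1 CPM in LF, so that all HFLF libraries but HFLF 1 and HFLF 5 lay within the LF range. HFLF 1 was the lowest of the 15 liver libraries for 8 of 29 members, and its 6 measured fibroblast markers of 10 summed to 20.8 CPM, the lowest of all, against 24.8 to 44.1 CPM in the others. The part of these markers in the result was not tested. Without HFLF 1 the Col1a1 estimate was -0.39, and without LF 6 that of Col6a6 was -0.42.

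Between HF and LF in liver the one member whose arms did not overlap was again Col5a3, where 1.4% of all genes lay apart and 0.951% lay apart with HF lower, and for HFLF-LF and HFLF-HF no member did, against 1.18% and 0.146% of all genes. It had 102, 97.3, 83.6, 108.5 and 92.7 CPM in the HF libraries 1, 2, 3, 5 and 6, against 115, 148, 118 and 109.5 CPM in LF. The lowest LF library, LF 6, exceeded the highest HF library, HF 5, by less than 1 CPM, and the log2 fold change of -0.30 ± 0.16 was not called (edgeR, unadjusted p = 0.0754, adjusted p = 1). Col8a1, Col27a1, Col6a6 and Col20a1 had log2 fold changes of -0.66 ± 0.36, 0.43 ± 0.25, 0.56 ± 0.39 and 0.37 ± 0.36, each with an edgeR adjusted p of 1. Without HF 3 the estimate of Col27a1 was 0.26 and that of Col20a1 0.16, and that of Col6a6 was 0.30 without LF 2 and 0.36 with the replicate number as a block. Col18a1, the main liver collagen, had 1798, 1658, 1834, 1577 and 1373 CPM in HF, against 1659, 1651, 1749 and 1411 CPM in LF, and the LF range lay inside the HF range.

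Between HFLF and HF in liver, Col6a6 had 0.264, 0.538 and 0.791 CPM in HFLF, and 1.14, 1.24, 0.637, 1.97 and 1.19 CPM in HF. HF 3 alone lay within the HFLF range. The HFLF levels are near the counting limit, and the 0.264 CPM of HFLF 6 corresponded to a count of 3. The log2 fold change was -1.21 ± 0.38 (edgeR, unadjusted p = 0.00508, adjusted p = 1). All 8 fibrillar chains had a lower estimate in HFLF, with a median of -0.23 and none at an unadjusted p under 0.05, and Col5a2 and Col1a1 had -0.38 ± 0.23 and -0.57 ± 0.37. Col8a1 and Col4a5 had higher estimates in HFLF, 0.65 ± 0.33 and 0.46 ± 0.29, and without HFLF 2 that of Col8a1 was 0.30. Leaving out 1 library brought Col4a5 to 0.28 (without HF 2), Col5a2 to -0.24 (without HFLF 5) and Col1a1 to -0.36 (without HFLF 1). Col18a1 had 1388, 1603 and 1689 CPM in HFLF, inside the HF range.

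Whether an arm difference itself differed between the tissues was tested as an interaction in the fit of all 31 libraries. EdgeR called 0 of 28 members and 0 of 12735 genes (0%) for HFLF-LF, HF-LF and HFLF-HF, with 2 members each at an unadjusted p under 0.05 against 5.84%, 4.88% and 4.94% of all genes. Col5a3 had the smallest p, with eWAT minus liver differences of 0.61 ± 0.25 for HFLF-LF (edgeR adjusted p = 0.733) and 0.60 ± 0.23 for HFLF-HF (adjusted p = 0.952). For HFLF-LF its own log2 fold change was 0.13 in eWAT and -0.48 in liver. Col27a1 had -0.85 ± 0.36 and Col8a1 0.94 ± 0.44 for HF-LF, both with an edgeR adjusted p of 0.956.

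The genes that process, link, bind and degrade collagen were also mostly higher in eWAT. Of 111 genes in 8 lists, 91 were in both tables. The lists cover modification in the endoplasmic reticulum, propeptide cleavage, cross-linking, fibril partners, basement membrane partners, receptors, breakdown and TGF-β signalling. At adjusted p under 0.05, 76 of the 91 were called higher and 12 lower in eWAT than in liver. Over all genes 42.9% were called higher and 42.6% lower. The largest group, chain modification, had 15 of 19 genes called higher and 3 called lower, with a median log2 fold change of 1.63. All 5 cross-linking genes measured were higher. Fibril partners had 11 of 12 higher, with a median of 3.63. The smallest p belonged to the laminin chains Lama4 and Lamc1, partners of type IV collagen in the basement membrane, at log2 fold changes of 4.89 ± 0.09 and 3.49 ± 0.06, and to Cd36, a fatty acid transporter that also binds collagen, at 6.73 ± 0.14 (edgeR adjusted p = 1.37e-29, 3.93e-29 and 4.84e-28).

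No gene of these lists was called between arms in either tissue by edgeR. In eWAT 5 of 102 were at an unadjusted p under 0.05 for HFLF-LF, 9 for HF-LF and 6 for HFLF-HF, beside the shares of all genes given above. For HFLF-LF the smallest p belonged to the growth factor Tgfb1, with a mean of 54.2 ± 9.30 CPM in HFLF and 75.0 ± 16 CPM in LF (log2 fold change -0.42 ± 0.14, edgeR adjusted p = 0.286), to Fkbp10, a procollagen chaperone, at -0.52 ± 0.19, and to Timp1, an inhibitor of matrix metalloproteinases, at -1.13 ± 0.45. All 3 genes had their highest level of the 16 libraries in LF 3, at 89.9, 57.4 and 8.73 CPM. Without LF 3 the log2 fold changes were -0.33 for Tgfb1, -0.25 for Fkbp10 and -0.62 for Timp1, and without the 4 libraries with testis transcripts -0.24, -0.14 and -0.52.

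For HF-LF in eWAT the smallest p was that of Ddr2, the receptor kinase for fibrillar collagen. It had 116, 149 and 155 CPM in HF, and 112, 93.7, 128 and 93.5 CPM in LF, with a log2 fold change of 0.38 ± 0.12 (edgeR adjusted p = 0.689). LF 5 alone lay within the HF range. The collagen-binding integrin Itga11 had a log2 fold change of 0.71 ± 0.27. Without the 4 libraries with testis transcripts these were 0.19 for Ddr2 and 0.41 for Itga11. For HFLF-HF, fibronectin (Fn1) had 367, 514 and 652 CPM in HFLF and 566, 729 and 842 CPM in HF, a log2 fold change of -0.43 ± 0.14 (edgeR adjusted p = 0.428). Ddr2 and the cross-linking enzyme Loxl3 followed, at -0.27 ± 0.10 and -0.33 ± 0.12.

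In liver 5 of 91 genes of the lists were at an unadjusted p under 0.05 for HFLF-LF, 5 for HF-LF and 1 for HFLF-HF. Over all genes the shares were 5.47%, 3.6% and 1.86%. The laminin chain Lamc3 had the smallest p against LF in both comparisons, which share the LF libraries, with 2.59, 5.26 and 6.60 CPM in HFLF, 5.47, 5.41, 6.08, 4.89 and 4.18 CPM in HF, and 2.30, 2.17, 3.88 and 2.92 CPM in LF. The HF libraries lay wholly above the LF libraries, where 1.4% of all genes lay apart in either direction. HFLF 1 alone of the HFLF libraries lay within the LF range. The log2 fold changes were 0.87 ± 0.23 for HFLF-LF and 0.91 ± 0.24 for HF-LF (edgeR adjusted p = 0.639 and 1). Next for HFLF-LF were the laminin chain Lamb2 and Cd36, at 0.46 ± 0.18 and 0.53 ± 0.21. Next for HF-LF were Thbs1, a matrix protein that activates TGF-β, and Mmp12, a macrophage elastase. Their log2 fold changes were 1.10 ± 0.43 and 1.59 ± 0.68, at levels near the counting limit. Thbs1 had 0.262 to 0.976 CPM in LF and 0.671 to 1.97 CPM in HF. Mmp12 had 0.130 to 0.918 CPM in LF and 0.347 to 3.60 CPM in HF. A count of 3 corresponded to 0.174 to 0.325 CPM in liver. For HFLF-HF the smallest p was that of Mmp12, at -1.62 ± 0.61 (edgeR adjusted p = 1), with means of 0.505 ± 0.25 CPM in HFLF and 1.54 ± 1.35 CPM in HF. Without HF 5 the Mmp12 estimates were 0.99 for HF-LF and -1.01 for HFLF-HF, and without LF 1 that of Cd36 for HFLF-LF was 0.32. Plod3, a lysyl hydroxylase, and the collagen receptor Ddr1 followed, at -0.20 ± 0.10 and -0.41 ± 0.21.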

How the data were processed

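RNA-seq gene counts were deposited by the authors as a table per tissue, already restricted by a low-count filter that the table names call a CPM filter. STAR and GRCm38.p6 are named in the submitters' processing notes. The counting program and whether it used strand are not stated there. The deposited RPKM tables were not used. Columns were matched to libraries by name, and arms were taken from the diet tag. In eWAT the lowest fourth-highest CPM of any gene was 0.707, and in liver 0.731.

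Levels are CPM of the deposited counts, divided by the summed exon length of GENCODE M21 where genes are compared. Arms were compared with edgeR 4.0.16 (R 4.3.3, TMM scaling, robust quasi-likelihood test) over all genes of a tissue, with the 3 arms in 1 fit and Benjamini-Hochberg adjustment, and a gene was called at an adjusted p under 0.05. Tissues and interactions were fitted over the 31 libraries together, each taken as independent. No label says whether liver and eWAT libraries of the same arm and number come from the same animal. With arm and number as a block in limma voom the correlation within blocks was 0.00618. Scripts were tested on simulated data. DESeq2 1.42.0, limma voom 3.58.1, other scalings and filters, a replicate block, 2 arms alone and left-out libraries were the alternatives. Libraries with testis, B cell, hepatocyte or smooth muscle transcripts were each left out as a set, the last 2 sets and the scaling by library totals being added after seeing the data.

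All members were counted by class, and those named with values were the 5 with the smallest unadjusted p in each arm comparison, the 6 highest per kb in each tissue, and the 4 highest and 4 lowest called log2 fold changes between tissues. Of the other matrix genes the 3 with the smallest p were named, except 1 gene that is not reported here. The members and lists were chosen with earlier results of these data known.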

Additional observations from a re-analysis of the deposited data

Results flagged for a closer look

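In groups of 4 to 6 libraries the highest and lowest library of each member was compared with the rest by Dixon's ratio. Over 192 groups, 22 stood apart. The limits of the ratio are set for about 1 in 20 groups of independent, normally distributed values. The members share libraries, CPM was not put on a log scale, and no rate over all genes was counted. The 22 are therefore not read as an excess. Each value below is a CPM level, with the nearest library of the same arm after it.

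In eWAT LF, library LF 3 was apart for Col1a1 (2202, nearest 571), Col1a2 (2022, nearest 816), Col6a6 (35.0, nearest 17.8) and Col8a2 (8.51, nearest 2.12), and LF 2 for Col20a1 (5.59, nearest 3.86) and Col6a4 (1.27, nearest 0.431). In eWAT HFLF, library HFLF 4, which had the second highest sum of smooth muscle markers, was apart for Col6a5 (191, nearest 37.5), Col6a6 (37.1, nearest 20.6), Col4a5 (41.3, nearest 19.0) and Col8a2 (9.30, nearest 3.16). In eWAT HF, 1 library each was apart for Col6a3 (252.7 in HF 2, nearest 171), Col28a1 (16.5 in HF 6, nearest 9.40) and Col20a1 (6.82 in HF 1, nearest 4.56).

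In liver HFLF, HFLF 6 was apart for Col20a1 (6.69, nearest 3.88) and Col4a3 (1.76, nearest 0.935), HFLF 4 for Col5a1 (16.2, nearest 11.3), HFLF 2 for Col8a1 (2.06, nearest 0.985) and HFLF 3 for Col8a2 (0.970, nearest 0.528). HFLF 1 was low for Col1a2 (10.9, nearest 20.97). In liver HF, HF 1 was high for Col1a2 (32.9, nearest 23.8). In liver LF, LF 3 was high for Col25a1 (1.08, nearest 0.260) and LF 6 was low for Col4a2 (22.2, nearest 32.6).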

How the results depend on the processing

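No collagen was called between arms under any alternative, and 26 of 28 were called between tissues by edgeR and by limma voom. Between arms 4 estimates of named members changed direction, all in settings that leave out LF 3. Col1a1 between HF and LF in eWAT was 0.17 without LF 3 and 0.42 without the 4 libraries with testis transcripts, and without those 4 Col1a1 and Col3a1 were 0.15 and 0.14 between HFLF and LF. With those 4 left out, LF 2 and LF 5 alone remain in the LF arm of eWAT. Leaving out 1 library at a time, Col1a1 ran from -1.11 to 0.17 for HF-LF and from -1.40 to -0.13 for HFLF-LF. Between tissues, with library totals alone, Col11a2 lost its call (-0.35), and Col14a1, Col20a1 and Col4a3bp turned to 0.40, 0.59 and 0.62. Over whole tables DESeq2 called 69, 12 and 52 genes in eWAT (HFLF-LF, HF-LF, HFLF-HF) and 11, 1 and 0 in liver, and without LF 5 edgeR called 13 for HFLF-LF in eWAT.

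With the replicate number as a block (replicate block), edgeR called 0 members in all 6 arm comparisons, and 1 gene in all, for HFLF-LF in liver. Same-numbered libraries of different arms correlated above 0.1 in 7 of 14 pairs in eWAT and 5 of 13 in liver. Other-numbered pairs did so in 16 of 70 and 12 of 61. The median correlation was 0.090 against -0.029 in eWAT and 0.085 against -0.041 in liver. Whether same-numbered libraries share more than a number was not tested. Liver and eWAT libraries of the same arm and number correlated above 0.1 in 2 of 14 pairs, and those of other numbers in 5 of 68. Depth limits the rarest chains, such as Col25a1 in liver and Col6a4 in eWAT.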
